A study of Mus musculus with 7 samples.

Results

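The let-7 and miR-98 family was examined as the set of array probes whose target begins with the seed of mature mouse let-7a-5p. The seed is bases 2 to 8, counted from the 5′ end, and is the stretch by which a miRNA chiefly recognises its mRNA targets. Of 1874 small RNA probes on the array, 22 carried this seed. The match was made on sequence alone, with no use of signal. Of these 22 probes, 12 matched a mature mouse miRNA, namely let-7a, let-7b, let-7c, let-7d, let-7e, let-7f, let-7g, let-7i and miR-98, which are 9 distinct mature sequences. The let-7a, let-7g and let-7i sequences each had a pair of probes, of 22 and 21 bases. The other 10 probes matched no mature mouse miRNA over their full length. Of these, 6 lay 1 base away from a mouse member and 4 lay further away.

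RNA was hybridised in 1 colour (Cy3). It came from CD4 T cells of DO11.10 mice, whose transgenic receptor binds a peptide of ovalbumin. The sOVA host group (3 arrays) held CD44 high DO11.10 cells recovered from mice labelled sOVA 5 days after transfer, and the WT host group (2 arrays) held such cells from WT Balb/c mice. Donor cells came from DO11.10 Rag2-/- mice, and hosts were immunized 24 h after transfer with dendritic cells that had been activated with LPS and loaded with ovalbumin peptide. The naive group (2 arrays) held CD25- CD44 low DO11.10 cells from Rag2+/+ mice without transfer. All mice were of Balb/c strain and 6 to 8 weeks old, and cells were sorted from pooled spleen and lymph nodes. The titles call the WT host "OVA immunized" and the sOVA host "sOVA immunized", so a difference in immunization between hosts cannot be told apart from the host. Activation, transfer and the Rag2 genotype of the donor likewise cannot be told apart in comparisons with naive cells. The series title names activation in vitro, whereas the design text and protocols describe activation in vivo. The labels do not state that replicates were separate pools of mice, so p-values measure only a spread among samples that may be technical.

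let-7 miRNAs are made from several genes whose products differ by a few bases outside the seed. They are processed from hairpin precursors, a step that the RNA-binding proteins LIN28A and LIN28B block, and they lower the output of growth-promoting mRNAs such as those of Ras and Myc family genes and Hmga2. In T cells, let-7 is abundant in quiescent cells and is known to restrain proliferation and effector differentiation.

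The 9 mature sequences are shown because the family is told apart by single bases outside the seed, which is in capitals. Sequences are those of RefSeq.
let-7a-5p: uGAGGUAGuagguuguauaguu
let-7b-5p: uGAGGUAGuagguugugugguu
let-7c-5p: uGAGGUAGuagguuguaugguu
let-7d-5p: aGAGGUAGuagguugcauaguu
let-7e-5p: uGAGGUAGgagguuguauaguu
let-7f-5p: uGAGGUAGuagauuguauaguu
let-7g-5p: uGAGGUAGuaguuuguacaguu
let-7i-5p: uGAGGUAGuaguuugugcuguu
miR-98-5p: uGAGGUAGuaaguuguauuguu

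Positions are counted from 1 at the 5′ end, and the let-7a base is written first. Relative to let-7a, let-7c differed by A19G and let-7b by A17G and A19G. let-7e differed by U9G, let-7f by G12A and let-7d by U1A and U16C. let-7g differed by G12U and U18C, and let-7i by G12U, A17G, U18C and A19U. miR-98 differed by G11A and A19U. Of 1679 mature mouse sequences in the table, 11 carried the seed, and the other two, let-7k and miR-1961, had no probe.

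The mature sequences lie as follows in GRCm38.p6, the build of the RefSeq table. let-7a-1 (chr13:48538239-48538260), let-7f-1 (chr13:48537889-48537910) and let-7d (chr13:48536078-48536099) form 1 cluster on the minus strand, outside any other annotated gene. let-7c-2 (chr15:85706616-85706637) and let-7b (chr15:85707325-85707346) lie together on the plus strand within the span of the lncRNA gene Lncppara. let-7c-1 (chr16:77599672-77599693, plus strand) neighbours Mir99a. let-7e (chr17:17830366-17830387, plus strand) lies within the span of Spaca6, beside Mir99b and Mir125a. let-7f-2 (chrX:151912353-151912374) and miR-98 (chrX:151913229-151913250) lie together on the plus strand within the span of Huwe1. let-7g (chr9:106178846-106178867, plus strand) lies within the span of Wdr82, and let-7i (chr10:122985698-122985719, minus strand) lies outside any other annotated gene. Mature let-7a, let-7c and let-7f are each encoded at more than 1 locus, so the array cannot tell those loci apart. For let-7a only the let-7a-1 locus is placed here, and let-7a-2 is not.

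Each probe had 7 spots per array. A probe counted as detected on an array when at least 50% of its spots were well above background, and 309 to 467 probes were detected per array. Levels are log2 of the processed intensity relative to the 75th percentile of the 253 probes detected on all 7 arrays. In intensity units that percentile was 9860, 11114 and 2729 for sOVA host, 9281 and 3591 for WT host and 11868 and 15743 for naive cells, so sOVA host replicate 3 and WT host replicate 2 were the dimmest. No spot was saturated. The 4 probes of lymphocyte miRNAs (miR-142a-3p, miR-181a-5p and miR-342-3p) were detected on every array, with summed levels, in multiples of the 75th percentile, of 2.13 to 5.77 in sOVA host, 2.98 to 4.81 in WT host and 7.33 to 8.85 in naive cells. miR-342-3p did not share this difference. Its log2 levels were 0.68, 0.92 and 0.00 in sOVA host, 1.05 and 0.10 in WT host and 0.35 and 0.40 in naive cells. miR-150-5p was also listed but is not in the RefSeq table. The 2 probes of the myeloid miR-223-3p had summed levels of 0.0145 to 0.0487 in sOVA host, 0.0193 to 0.0271 in WT host and 0.166 to 0.192 in naive cells. Of these probes, 0, 2 and 1 were detected on sOVA host arrays, 2 and 0 on WT host arrays and 2 on each naive array. They thus passed the filter only through naive cells, where they are highest, and their levels are a description. The summed level of the 3 erythroid probes (miR-451a and miR-144-3p) was 3.19 on sOVA host replicate 3 and 0.0964 to 0.859 on the other arrays. This sum rests on the 2 probes of miR-451a, since miR-144-3p was detected on no array. The summed level of 9 epithelial probes was 0.122, 0.132 and 0.0686 in sOVA host, 0.0557 and 0.0545 in WT host and 0.0961 and 0.0884 in naive cells, with 0 to 4, 0 to 3 and 5 to 7 of them detected per array. Of these, miR-205-5p was detected on 2 sOVA host arrays and on no WT host or naive array. In contrast, miR-200a-3p and every miR-200b-3p probe were detected on naive arrays only. miR-200c-3p and miR-141-3p were detected on some arrays of every group, and miR-429-3p on none. Among markers of other cells, miR-126a-3p (3 probes), an endothelial miRNA, was detected on naive replicate 2 only and miR-9-5p on none. The part of other cell types and of array brightness in the family's changes was not tested. In sorted bulk RNA, fewer cells of a type and less RNA per cell cannot be told apart.

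Of the 22 members, 16 were detected on all 7 arrays, 2 on some arrays and 4 on none. The 4 undetected probes were those further than 3 bases from any mouse member. The remaining 18, detected on all arrays of at least 1 group, entered the tests, which covered 401 probes in all. All 12 probes of mouse let-7 and miR-98 were among the 16 detected throughout. Probes differ in how they bind, so levels are not ranked between miRNAs. Where a ratio of signals of different probes is given, it is taken within an array and compared between arrays.

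let-7b-5p stood at log2 levels of -1.06, -0.71 and -1.97 in sOVA host cells, -0.50 and -1.90 in WT host cells, and 0.68 and 0.69 in naive cells. Every host array lay below both naive arrays, and the dim array of each host was the lowest of its group. let-7c-5p, which differs from let-7b by 1 base, stood at 0.00, 0.26 and -0.71 in sOVA host cells, 0.41 and -0.38 in WT host cells, and 1.32 and 1.19 in naive cells. The groups of let-7c were separated in the same way.

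let-7a-5p (22-base probe) had levels of 0.98, 1.30 and 0.46 in sOVA host cells, 1.39 and 0.88 in WT host cells, and 1.83 and 1.66 in naive cells. let-7g-5p (22-base probe) had 0.95, 1.05 and 0.14 in sOVA host cells, 1.46 and 0.80 in WT host cells, and 1.93 and 1.82 in naive cells. let-7f-5p had 1.87, 2.04 and 1.11 in sOVA host cells, 2.21 and 1.79 in WT host cells, and 2.42 and 2.22 in naive cells. For all of let-7a, let-7g and let-7f the host arrays lay below the naive arrays, with let-7f the closest to overlap.

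let-7d-5p had 0.59, 0.94 and 0.44 in sOVA host cells, 1.08 and 0.81 in WT host cells, and 0.88 and 0.71 in naive cells. let-7e-5p had -3.15, -2.90 and -3.52 in sOVA host cells, -2.98 and -3.33 in WT host cells, and -2.74 and -3.08 in naive cells. Both let-7d and let-7e overlapped between each host and naive cells.

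let-7i-5p (22-base probe) had 0.73, 0.57 and 0.14 in sOVA host cells, 1.07 and 0.91 in WT host cells, and 0.39 and 0.35 in naive cells. Only the WT host arrays of let-7i were separated from the naive arrays, on the higher side. miR-98-5p had -2.47, -2.30 and -2.90 in sOVA host cells, -2.15 and -2.17 in WT host cells, and -3.29 and -3.46 in naive cells. It was the only mouse member whose arrays of both hosts all lay above both naive arrays.

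**Figure D1:**
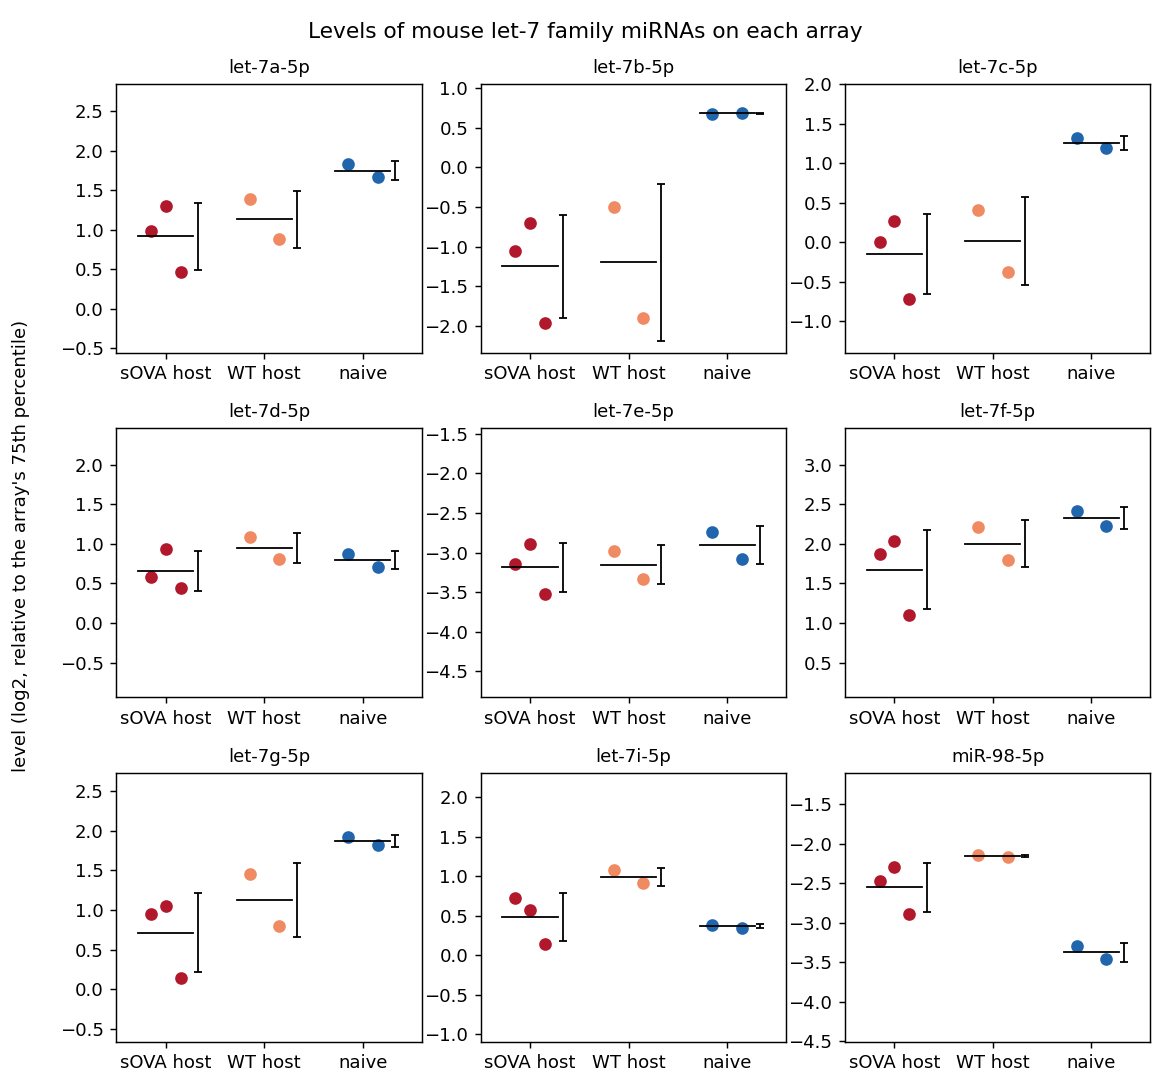
Log2 level, relative to the array's 75th percentile, of the 22-base probe of each of the 9 mouse miRNAs (1 panel each). Points are arrays of sOVA host, WT host and naive cells, horizontal lines are group means and error bars are SD. All panels span the same number of log2 units. let-7b shows the widest gap between the host and naive groups, and miR-98 is the panel in which both hosts lie above naive cells.

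The first comparison asked which members differed between antigen-activated cells recovered from sOVA hosts and naive cells. Of 18 members tested, limma called 1, let-7b, at a Benjamini-Hochberg adjusted p under 0.05, and it was lower (23.2% of all 401 probes were called, 6.23% lower and 17% higher). let-7b changed by -1.93 ± 0.54 (SE) on the log2 scale, 3.82-fold lower in sOVA host cells (limma adjusted p = 0.0496). let-7c changed by -1.41 ± 0.40 (limma adjusted p = 0.0503), just outside the threshold. Changes of let-7g were -1.16 and -1.36 for its longer and shorter probe, those of let-7a -0.83 and -1.13, and that of let-7f -0.65. let-7e (-0.28), let-7d (-0.14) and let-7i (0.11 and 0.07) lay near 0, and miR-98 changed by 0.82 ± 0.28 (limma adjusted p = 0.069). At an unadjusted p under 0.05 there were 10 members, against 43.6% of all probes. Changes lay below 0 for 14 of 18 members (47.6% of all probes), and the median change was -0.79, against 0.11 over all probes tested. Of the 12 probes of mouse let-7 and miR-98 alone, 9 lay below 0, with a median of -0.74. Counts of members, here and below, are counts of probes. They include pairs for the same miRNA and probes 1 base away from a mouse member, so they are not counts of independent signals. Groups did not overlap for 12 members on the lower side (30.4% of all probes) and 1 on the higher side (31.9%).

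The call of let-7b depended on single arrays. Its limma adjusted p was 0.258 and 0.184 when naive replicate 1 or 2 was left out, and 0.0827 and 0.0575 when sOVA host replicate 1 or 2 was. Without sOVA host replicate 3, one of the dim arrays, 4 members were called (39.1% of all probes), and without both dim arrays 9 (43.5% of all probes). The arrays occupied both rows of 1 slide, read from the array's place in the file headers, with every group in both rows. Row 2 held both dim host arrays and naive replicate 2, the brightest array, so row and brightness cannot be told apart. Here and below, row as a block, values within rows and fits without the dim arrays are therefore not separate checks. With row as a block, 10 members were called lower and none higher (39.2% of all probes were called), among them let-7a (-0.91, adjusted p = 0.0404), let-7b (-2.07, adjusted p = 0.0119), let-7c (-1.51, adjusted p = 0.0121) and let-7g (-1.25, adjusted p = 0.0182 for its longer probe). The median change of members was -0.71 within row 1 and -1.16 within row 2.

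The second comparison set cells activated in WT hosts against the same naive arrays. limma called 1 of the 18 members, miR-98, and it was higher (20.2% of all probes were called, 13.7% higher and 6.48% lower). miR-98 changed by 1.22 ± 0.30 (SE), 2.32-fold higher in WT host cells (limma adjusted p = 0.0362). let-7b had a change of nearly the size seen in sOVA hosts, -1.88 ± 0.60 (limma adjusted p = 0.0725), and let-7c one of -1.24 ± 0.44 (limma adjusted p = 0.0965). Changes of let-7g were -0.74 and -1.03, of let-7a -0.61 and -0.96, of let-7f -0.32 and of let-7e -0.25. let-7i changed by 0.62 and 0.57 and let-7d by 0.15. At an unadjusted p under 0.05 there were 4 of 18 members (22.2%), a smaller share than the 38.2% of all probes. Changes lay below 0 for 13 of 18 members (42.6% of all probes), and the median was -0.53, against 0.24 over all probes. Groups did not overlap for 12 members on the lower side (32.2% of all probes) and 4 on the higher side (43.6%). As both comparisons share the naive arrays, the likeness of their values is no independent support.

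miR-98 was not called when any array but sOVA host replicate 3 was left out. Its adjusted p was 0.246 and 0.215 without naive replicates 1 and 2, 0.143 and 0.146 without WT host replicates 1 and 2, and 0.0599 and 0.058 without sOVA host replicates 1 and 2 (limma). Without sOVA host replicate 3, 6 members were called, 5 of them lower (45.2% of all probes were called), and without both dim arrays 2 (34.5% of all probes). With slide row as a block, 5 members were called, miR-98 higher (1.22, adjusted p = 0.0229) and 4 lower (32.4% of all probes were called). These 4 were let-7b (adjusted p = 0.022), let-7c (adjusted p = 0.0306), the shorter let-7g probe (adjusted p = 0.0458) and a probe 1 base away from let-7c (adjusted p = 0.0239). The median of members was -0.46 within row 1 and -0.61 within row 2.

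For the mean of both hosts over naive cells, 4 members were called, 1 higher and 3 lower (30.7% of all probes were called, 20.2% higher and 10.5% lower). miR-98 changed by 1.02 ± 0.25 (SE, limma adjusted p = 0.0292), let-7b by -1.91 ± 0.50 (adjusted p = 0.0339) and let-7c by -1.32 ± 0.37 (adjusted p = 0.0408). The probe 1 base away from let-7c changed by -1.64 ± 0.47 (limma adjusted p = 0.044). Changes lay below 0 for 13 of 18 members (44.6% of all probes), and the median of members was -0.66, against 0.15 over all probes. Groups did not overlap for 12 members on the lower side (24.2%) and 1 on the higher side (30.4%). No member was called without naive replicate 1, naive replicate 2, WT host replicate 2 or sOVA host replicate 1 (3.7%, 6.98%, 16.9% and 25.1% of all probes), 2 were called without WT host replicate 1 (20% of all probes) or sOVA host replicate 2 (24.3%), and 8 without sOVA host replicate 3 (46.4%). Without both dim arrays 7 were called (43.8% of all probes), and with slide row as a block 10 were, 1 higher and 9 lower (43.1% of all probes). Within rows 1 and 2 the pooled change was -1.37 and -2.63 for let-7b, -1.05 and -1.74 for let-7c, and 1.02 and 0.93 for miR-98.

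**Figure D2:**
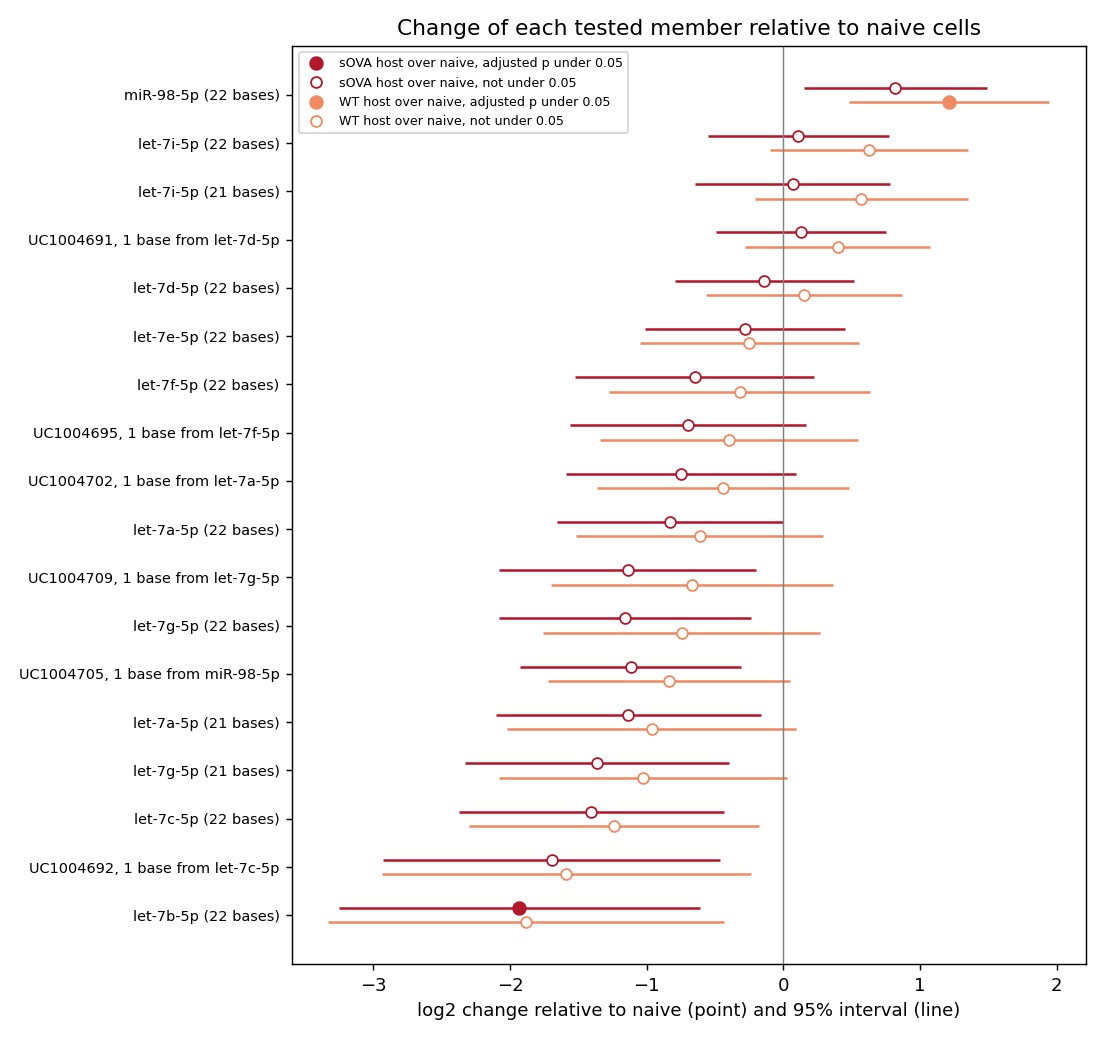
Log2 change relative to naive cells (point) with its 95% interval from limma (line) for the 18 tested members, sOVA host above WT host in each pair. Filled points passed an adjusted p of 0.05. let-7b is filled in sOVA host and miR-98 in WT host only, and the intervals of let-7c lie wholly below 0 in both hosts without passing that threshold.

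Scaling moved the members together. With each array scaled to the 75th percentile of all probes instead, the median change of all probes moved to -0.71 in sOVA host and -0.28 in WT host. Only 16.5% to 24.9% of all probes were detected per array, so that percentile lay near or among probes not detected. Under that scaling let-7i turned to -0.71 and -0.75 in sOVA host, let-7d turned to -0.36 in WT host, and miR-98 stood at 0.00 in sOVA host and 0.70 in WT host. Ratios between members on the same array do not depend on this choice, and the change of each member was therefore also tested minus that of the longer let-7a probe.

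miR-98 rose relative to let-7a in both hosts. Its log2 ratio to the 22-base let-7a probe, minus the naive mean of that ratio, was 1.66, 1.52 and 1.76 on the sOVA host arrays, 1.59 and 2.07 on the WT host arrays, and 0.00 on each naive array. The difference was 1.65 ± 0.30 (SE) in sOVA host (limma adjusted p = 0.012) and 1.83 ± 0.32 in WT host (adjusted p = 0.0172). It was the only member called in either of those comparisons (26.5% of all 400 other probes were called in sOVA host and 17.8% in WT host). Within slide rows 1 and 2 it was 1.59 and 1.76 in sOVA host and 1.58 and 2.07 in WT host.

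For the mean of both hosts over naive cells, 5 members changed unequally to let-7a (30.5% of all other probes). These were miR-98 (1.74 ± 0.27, limma adjusted p = 0.00804), let-7i (1.09 ± 0.28, adjusted p = 0.034 for the longer and 0.0378 for the shorter probe), let-7b (-1.19 ± 0.34, adjusted p = 0.0451) and a probe 1 base away from let-7d (0.98 ± 0.28, adjusted p = 0.0434). The let-7i ratio was 1.12, 0.64 and 1.06 on sOVA host arrays, 1.06 and 1.41 on WT host arrays, and -0.07 and 0.07 on naive arrays. The let-7b ratio was -0.98, -0.95 and -1.37 on sOVA host arrays, -0.82 and -1.72 on WT host arrays, and -0.09 and 0.09 on naive arrays. All host arrays of let-7i lay above, and all those of let-7b below, both naive arrays. These ratios are to the longer let-7a probe, and the shorter let-7a probe itself changed by -0.33 ± 0.25 relative to it (limma adjusted p = 0.334). A negative difference, as for let-7b, would be smaller against the shorter probe, and a positive one larger. Tests against the shorter probe were not run, so the call of let-7b holds for the longer probe only. Over all 4 comparisons 7 of 68 such tests of members were called (18.7% of the tests of all other probes). There were 0 calls when either naive array was left out, 2 to 5 when any host array but sOVA host replicate 3 was, and 13 without that array (35.7% over all probes). With slide row as a block there were 17 (36.2% over all probes).

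**Figure D3:**
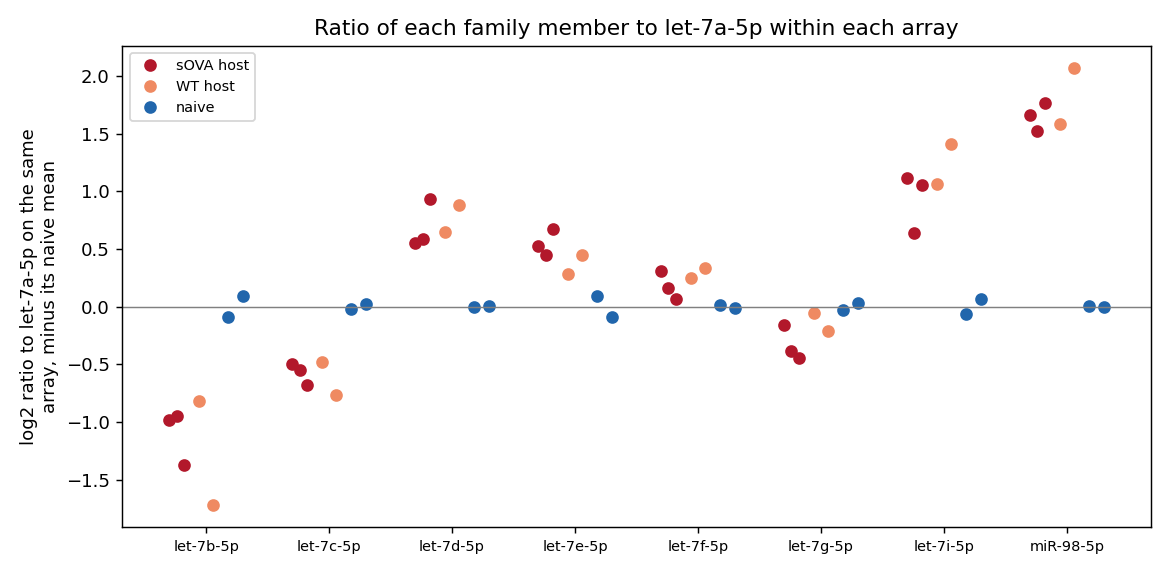
Log2 ratio of the 22-base probe of each mouse member to that of let-7a on the same array, minus the naive mean of that ratio, with 1 point per array and colours for sOVA host, WT host and naive cells. miR-98 lies between 1.52 and 2.07 on all 5 host arrays, and let-7b lies below 0 on all of them.

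Members that lie in 1 cluster are given side by side. In the chromosome 13 cluster the change in sOVA host was -0.83 for let-7a, -0.65 for let-7f and -0.14 for let-7d, though let-7f is also encoded beside miR-98 and let-7a at other loci. On chromosome X, miR-98 changed by 0.82 in sOVA host and 1.22 in WT host, while let-7f, encoded in part beside it, changed by -0.65 and -0.32. The let-7b and let-7c pair of chromosome 15 changed by -1.93 and -1.41 in sOVA host and by -1.88 and -1.24 in WT host. The differences of let-7d and let-7f from let-7a were not called in either host (limma adjusted p = 0.129 and 0.633 in sOVA host, 0.127 and 0.471 in WT host). Differences between other members were not tested.

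Profiles over the 7 arrays, each centred on its own mean, were compared by root mean square difference as a description. The pair of let-7i probes differed by 0.05 log2 units, the let-7g pair by 0.11 and the let-7a pair by 0.17, which is more than some pairs of different miRNAs. Among probes of different miRNAs, let-7c and the shorter let-7g probe were the most alike (0.11), and let-7b and miR-98 the least alike (1.38). Outside the family, 237 probes detected on all arrays were compared with the family's median profile. The nearest were 3 probes of miR-30c-5p, at 0.049, 0.080 and 0.086 log2 units, then the unmatched probe UC1004731 (0.092) and a probe of miR-7a-1-3p (0.129). The 7 arrays share scaling and brightness, which enter every such profile.

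The comparison of hosts asked whether cells activated in sOVA hosts differed from those activated in WT hosts. limma called 0 of the 18 members and 0 of all 401 probes (0%), and at an unadjusted p under 0.05 there were 47 probes and 0 members. All 18 fitted changes lay below 0, between -0.51 (let-7i) and -0.03 (let-7e), with a median of -0.29, against -0.15 over all probes, of which 59.9% lay below 0. The 95% intervals of the 18 members together spanned -1.41 to 1.27 log2 units, and that of let-7a was -1.04 to 0.61 and that of let-7b -1.37 to 1.27. Groups did not overlap for 3 members on the lower side (18% of all probes), namely both let-7i probes and miR-98, and for 0 on the higher side (5.74%). Members called also numbered 0 without sOVA host replicate 3 and without both dim arrays, although 18.9% and 13.4% of all probes were called there. The median was -0.06 without sOVA host replicate 3, with 12 of 18 below 0, and -0.09 without WT host replicate 1, with 10 of 18 below 0. Scaling to the median of the detected probes left 13 of 18 below 0. The median was -0.31 within slide row 1 and -0.52 within row 2. As an interval that covers 0 is not equality, the members' values in the hosts are given here without a statement that they are alike.

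The 6 probes 1 base away from a mouse member are set beside that member. Substitutions are given from the mouse member to the probe's target, written as DNA. In sOVA host against naive cells, the probe 1 base from let-7a (UC1004702, G12T) changed by -0.75 beside -0.83 for let-7a itself. The probe 1 base from let-7f (UC1004695, T16A) changed by -0.70 beside -0.65, and that from let-7g (UC1004709, A10T) by -1.14 beside -1.16. The probe 1 base from let-7c (UC1004692, A10T) changed by -1.70 beside -1.41, and that from let-7d (UC1004691, A10G) by 0.13 beside -0.14. These 5 lay within 0.29 log2 units of their nearest mouse member in sOVA host and within 0.35 in WT host.

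The remaining probe, UC1004705, differs from miR-98 by A17G. Both targets are shown because their probes differ by this base alone, with the seed in capitals.
miR-98-5p probe target: tGAGGTAGtaagttgtattgtt
UC1004705 probe target: tGAGGTAGtaagttgtgttgtt

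The log2 levels of UC1004705 were -7.01, -6.69 and -7.37 in sOVA host cells, -6.45 and -7.04 in WT host cells, and -5.72 and -6.10 in naive cells. It was detected on 1 of 3 sOVA host arrays, 1 of 2 WT host arrays and both naive arrays. It thus entered the tests only through naive cells, where it is highest, and its fitted values of -1.12 in sOVA host and -0.84 in WT host rest in part on signals not well above background. They are a description, neither was called, and no difference from miR-98 (0.82 and 1.22) is drawn from them. Relative to let-7a the target of UC1004705 differs by G11A, A17G and A19T. Which RNA gave its signal was not tested.

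**Figure D4:**
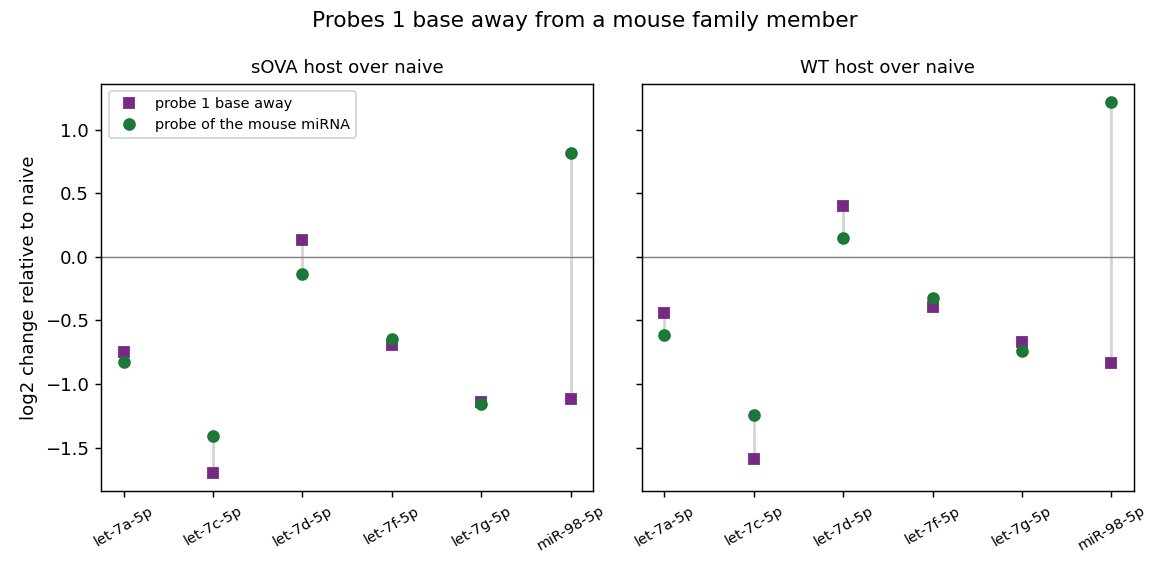
Log2 change relative to naive cells of each of the 6 probes 1 base away from a mouse member (squares) beside that of the mouse member (circles), in sOVA host (left) and WT host (right). In each panel 5 pairs lie close together and the probe near miR-98, which was detected on 1 array of each host, lies below it.

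The array also carried 22 control probes for let-7a, each with 1 mismatched base and 1 spot, which measure what a single base does to the let-7a signal. Their signal is given as a percentage of that of the 22-base let-7a probe on the same array, as the median over 7 arrays. A mismatch at position 1 left 106%, at position 2 it left 42.8% and at position 3 26.7%. At positions 4 to 11 the remaining signal was 2.20% (position 5) to 8.49% (position 6). It was 10.7% at position 12, 19.8% at position 16, 10.9% at position 17, 26.7% at position 18 and 27.6% at position 19, and 65.2% and 72.6% at positions 21 and 22. Position 19, at which let-7b, let-7c and miR-98 all differ from let-7a, thus left more signal than position 11 (3.16%), at which miR-98 also differs, or position 9 (7.49%), at which let-7e differs. The control probes carry other bases than the family members do at several of these positions, so these percentages are not cross-reactivity between members.

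The mismatch signals separated the host arrays from the naive arrays along most of let-7a, in both directions. The naive arrays lay below every host array at 15 of the 22 positions, all between 1 and 16, and above every host array at the 4 positions from 19 to 22, with overlap at the other 3. All percentages of an array share the same denominator, its let-7a signal, so the positions are not separate results. At position 1 the highest naive array (98.50%) and the lowest host array (98.52%) were nearly equal. At position 2 the signal was 44.3%, 43.6% and 42.8% on sOVA host arrays, 45.8% and 42.4% on WT host arrays, and 38.5% and 38.0% on naive arrays. A mismatch at position 22 left 72.6%, 75.1% and 60.7% on sOVA host arrays, 72.5% and 62.4% on WT host arrays, and 80.7% and 83.5% on naive arrays. A mismatch at position 21 left 65.2%, 67.4% and 53.9% on sOVA host arrays, 51.7% and 57.0% on WT host arrays, and 75.9% and 76.6% on naive arrays. In the pairs of probes that differ only by the last base, the 21-base let-7a probe gave 78.5%, 79.3% and 67.3% of the signal of the 22-base probe on sOVA host arrays, 75.7% and 69.5% on WT host arrays, and 92.3% and 92.8% on naive arrays. For let-7g this share was 83.7%, 80.4% and 79.0% on sOVA host arrays, 77.9% and 75.8% on WT host arrays, and 94.8% and 92.0% on naive arrays. For let-7i it was 98.2%, 94.4% and 91.7% on sOVA host arrays, 98.0% and 90.0% on WT host arrays, and 94.7% and 100.3% on naive arrays. The host and naive arrays did not overlap for let-7a, let-7g or the mismatches at positions 21 and 22, and overlapped for let-7i. No test was run on these shares, which were singled out after their values were seen. The naive arrays were also the brightest for let-7a, and the part of brightness was not tested.

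**Figure D5:**
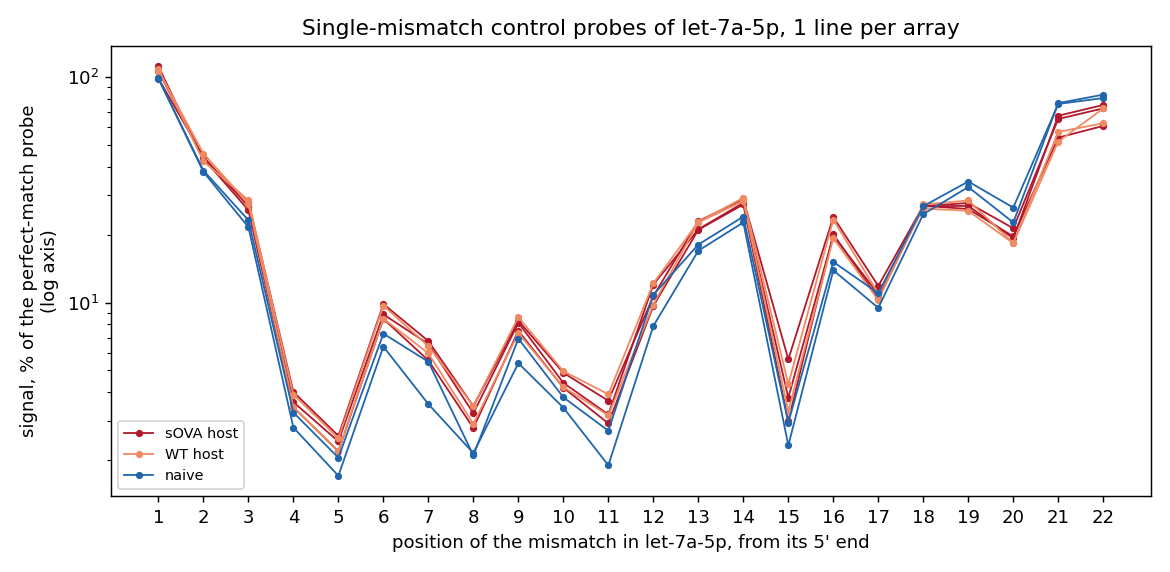
Signal of the 22 single-mismatch control probes of let-7a as a percentage of the perfect-match probe on the same array (log axis), by position of the mismatch from the 5′ end, with 1 line per array. Signal is lowest for positions 4 to 11 and 15, and the naive arrays lie above the host arrays at positions 19 to 22 and below them at most earlier positions.

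The 3p arms of the let-7 hairpins, which are mostly degraded when the 5p strand is loaded, had 10 probes and none could be tested. let-7d-3p and let-7g-3p were detected on naive replicate 2 only, let-7i-3p on naive replicate 2 and WT host replicate 1, and the other 7 probes on no array. The miRNAs that share clusters with let-7 genes in mouse had 5 probes, of which 1, miR-125a-5p, was tested. It had log2 levels of -6.05, -5.70 and -6.88 in sOVA host cells, -9.17 and -8.35 in WT host cells, and -6.38 and -6.18 in naive cells, and was not well above background on either WT host array. It entered the tests only through naive cells, so its level in WT host, at least 1.35-fold lower, is given as a description. Its value in sOVA host, where it was detected on replicate 2 only, was 0.07 on the log2 scale and is likewise a description. let-7e, its neighbour on chromosome 17, changed by -0.28 in sOVA host and -0.25 in WT host. miR-99a-5p and miR-100-5p were detected on sOVA host replicates 1 and 3 only, miR-99b-5p on sOVA host replicates 2 and 3 only, and miR-125b-5p on sOVA host replicate 3 and naive replicate 2.

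Other seed families known from quiescent lymphocytes had values below 0 for every probe tested. In the let-7 family 4 of 18 tested members in sOVA host and 5 of 18 in WT host lay above 0, against 0 of 9 miR-30, 0 of 6 miR-29 and 0 of 4 miR-26 probes in either host. Medians were -0.80 and -0.49 for miR-30, -1.68 and -2.81 for miR-29, and -1.55 and -2.02 for miR-26 in sOVA host and WT host, beside -0.79 and -0.53 for let-7. limma called 3 and 2 miR-30, 0 and 1 miR-29 and 1 and 1 miR-26 probes lower in sOVA host and WT host. Over all 401 probes tested, 6.23% and 6.48% were called lower, and 47.6% and 42.6% lay below 0. Tested were 9 of 10 miR-30, 6 of 11 miR-29 and 4 of 5 miR-26 probes. A probe could enter through naive cells alone, which favours values below 0, and detection by group is not given for these families. These families were compared by counts and medians only, and the difference between families was not tested.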

How the data were processed

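Small RNA of DO11.10 CD4 T cells was measured on 7 one-colour Agilent arrays (250 ng of RNA per the design text, labelled with an Exiqon kit per the labels' protocols). The deposited scanner files hold the processed spot intensity, background-subtracted but not scaled between arrays, per the file headers. These name Feature Extraction 9.5.1.1, whereas the submitters' processing notes name version 10.6. Outlier-flagged spots were left out, and log2 values of the 7 spots of a probe were averaged. For scaling, the 75th percentile of the 253 probes that every array detected was subtracted. The number of arrays limits the precision.

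A target was the reverse complement of the probe without its 10 final T and a leading G. Targets were matched to RefSeq mature miRNAs, and 613 of 1874 probes matched a mouse one. limma (version 3.58.1, R 4.3.3) was fitted with a mean per group over 7 arrays. Benjamini-Hochberg adjustment ran over the 401 probes tested, with a threshold of 0.05. The same was done after scaling to let-7a. The script was checked on simulated data.

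The rule named every probe of a mouse let-7 or miR-98 sequence, other members where called, the 5 probes most like the family profile, and listed partners and markers. The other probes 1 base away from a mouse member were named after their values were seen. The members and lists were chosen with earlier results of these data known. The deposited value table was not used, since its identifiers follow another scheme and none matched a member. Replicate numbers were not taken as pairs of samples. Deviations of same-numbered arrays correlated at -0.61 to 0.33, but with so few arrays per group this cannot show whether samples were paired. Alternatives covered scaling, background correction, the filter on dim probes, the summary of spots, merged targets, slide row, replicate block, and left-out arrays.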

Additional observations from a re-analysis of the deposited data

How the results depend on the processing

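Over the alternatives, no called change of a member reversed. The share of all probes called stands in parentheses after each count of members. In sOVA host over naive, members called numbered 2 with the 75th percentile taken over all probes (19.5%), 2 with normexp background correction (19.7%), 4 with the median of the spots (24.4%), 10 with slide row as a block (39.2%) and 9 without both dim arrays (43.5%). They numbered 0 with scaling to the median of detected probes (17.2%), quantile normalization (19.7%), no filter on dim probes (1.81%), detection on all arrays (16.2%), merged targets (21.1%) or only the groups compared (5.93%). In WT host over naive they numbered 0 with those 3 scalings (12.2%, 18.5% and 16.5%) and with no filter (1.17%), 5 with slide row as a block (32.4%), 3 with only the groups compared (42.2%) and 2 without both dim arrays (34.5%). For the mean of both hosts they numbered 2 with the percentile of all probes (20.2%) or median scaling (23.2%), 0 with quantile normalization (21.7%) or no filter (1.87%), 10 with slide row as a block (43.1%) and 7 without both dim arrays (43.8%). Leaving out 1 array gave 0 to 4 (3.08% to 39.1%), 0 to 6 (3.49% to 45.2%) and 0 to 8 (3.7% to 46.4%) calls in these comparisons, and 0 in sOVA host over WT host (0% to 18.9%). Tests against let-7a gave 2 calls with normexp (9.31%), 4 with no filter (18.5%), 4 with merged targets (15.7%), 17 with slide row as a block (36.2%), 11 without both dim arrays (30.3%), and 0 to 13 without 1 array (1.7% to 35.7%). With replicate number as a replicate block, which is not known to pair the samples, calls numbered 2 in sOVA host (32.7%), 4 in WT host (41.1%), 6 for their mean (44.1%), 0 between hosts (8.98%) and 3 against let-7a (23.1%). Signs turned among uncalled values for let-7i in sOVA host (-0.71 and -0.75 with the 75th percentile of all probes, -0.025 for the shorter probe with median scaling, and, with 1 array left out, -0.040 to 0.26 for the longer and -0.11 to 0.25 for the shorter probe, the lowest without sOVA host replicate 1) and let-7d in WT host (-0.36 and -0.12 with those scalings). The cause was not tested.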
